A study of Mus musculus with 43 samples.

Results

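Glycolysis, the breakdown of glucose to pyruvate and lactate, and the transcriptional response to low oxygen were followed through 36 named genes. By role they are 2 HIF alpha subunits, 3 HIF prolyl hydroxylases, 2 glucose transporters, 6 genes of upper glycolysis, 4 enzymes that make or remove fructose 2,6-bisphosphate, 8 genes of lower glycolysis, 4 genes of lactate and pyruvate handling, 2 subunits of collagen prolyl 4-hydroxylase and 5 other genes known to respond to low oxygen. All 36 were found among the 57010 genes of the deposited count table. None was at 0 in any library, the lowest count was 4 reads, and all 36 passed the filter on low counts in every fit. The 43 bulk RNA-seq libraries come from mice that were wild type or carried Q150X, a stop codon that CRISPR/Cas9 introduced into Vegfa, whose product drives the growth of blood vessels. Whole hearts were sampled at homeostasis (3 libraries of each genotype) and at 7 days (4 of each) and 30 days (3 wild type, 4 Q150X) after myocardial infarction (MI), the loss of heart muscle that follows a blocked coronary artery. Endothelial cells (EC), which line blood vessels, and cardiomyocytes (CM), the contractile cells of the heart, were sampled at homeostasis (3 libraries of each genotype) and 3 days after MI (2 EC and 3 CM libraries of each genotype). The labels mark the Q150X samples HO, and they give no strain, sex, age or way of isolating the cells. They do not say how many founder lines were used or whether the libraries of a group come from separate animals, so p-values measure the spread between these libraries, which may be technical. The comparisons ask how MI changed each gene and whether the Vegfa stop codon altered its level or its change.

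Cells sense oxygen through the prolyl hydroxylases Egln1, Egln2 and Egln3, which mark the HIF alpha subunits Hif1a and Epas1 for destruction while oxygen is present. When oxygen falls the alpha subunits persist, mostly through protein stability rather than mRNA, and bind DNA at a short core with the letters ACGTG or GCGTG. Known targets include glycolytic genes, the lactate exporter Slc16a3, Pdk1, which holds pyruvate back from the mitochondria, Egln3, Ankrd37, Ndrg1 and Vegfa itself. The adult heart draws most of its energy from fatty acids and keeps muscle isozymes of glycolysis, whereas endothelial cells are known for a high rate of glycolysis driven by Pfkfb3.

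Promoter sequence was available in RefSeq tables (GRCm38.p6) for 33 of the 36 members, as 53 windows of 250 bases before to 50 bases after a start site. Epas1, Ndrg1 and Slc2a4 had no entry. The letters ACGTG, searched on both strands so that CACGT also counts, were present in 25 of these 53 windows (47.2%), against 19.6% of 32851 windows of all genes. The letters CACGTG hold the core on both strands and count for each. Counted by gene, 21 of 33 members held the letters in at least 1 window (63.6%) and 21.8% of 27025 genes did. The members had more windows per gene (53 for 33 members, against 32851 for 27025 genes), and the list holds known HIF targets. The member windows were also richer in G and C, with a median of 61.3% against 52.7%, and a match describes letters, not a bound site. The other core, GCGTG, was in 54.7% of member windows and 32.4% of all windows. The 250 bases before the start are shown for 6 members, with ACGTG or CACGT in capitals, because their values carry the results below. Slc16a3 (chr11:120948817-120949066, plus strand) and Hif1a (chr12:73907617-73907866, plus strand) rose in both cell types after MI. Hk2 (chr6:82774455-82774704, minus strand) and Egln3 (chr12:54203875-54204124, minus strand) fell in whole hearts. Eno3 (chr11:70656926-70657175, plus strand) and Pgam2 (chr11:5803797-5804046, minus strand), muscle isozymes at far higher levels in CM than in EC, have neither of the capitalised runs in this stretch. The core GCGTG is not capitalised, and the stretch of Eno3 holds it on the other strand, as CACGC.
Slc16a3: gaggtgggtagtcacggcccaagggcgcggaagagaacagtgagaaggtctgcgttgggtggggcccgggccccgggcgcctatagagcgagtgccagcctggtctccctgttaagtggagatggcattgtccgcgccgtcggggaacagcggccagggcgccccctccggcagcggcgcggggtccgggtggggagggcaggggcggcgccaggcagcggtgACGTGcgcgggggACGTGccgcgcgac
Hif1a: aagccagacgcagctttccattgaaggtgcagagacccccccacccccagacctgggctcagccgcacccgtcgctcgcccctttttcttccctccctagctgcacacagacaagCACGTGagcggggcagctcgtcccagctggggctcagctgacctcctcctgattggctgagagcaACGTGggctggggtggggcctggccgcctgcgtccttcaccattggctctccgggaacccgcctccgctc
Hk2: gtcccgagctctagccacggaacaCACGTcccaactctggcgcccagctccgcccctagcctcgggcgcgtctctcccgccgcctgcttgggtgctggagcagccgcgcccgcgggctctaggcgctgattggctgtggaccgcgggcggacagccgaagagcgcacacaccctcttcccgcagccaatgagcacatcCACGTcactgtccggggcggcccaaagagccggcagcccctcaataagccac
Egln3: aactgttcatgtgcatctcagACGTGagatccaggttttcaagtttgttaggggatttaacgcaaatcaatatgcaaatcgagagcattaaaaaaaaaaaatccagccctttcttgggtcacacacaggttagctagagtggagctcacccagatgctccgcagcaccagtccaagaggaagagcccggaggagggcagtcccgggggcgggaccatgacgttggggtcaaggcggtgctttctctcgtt
Eno3: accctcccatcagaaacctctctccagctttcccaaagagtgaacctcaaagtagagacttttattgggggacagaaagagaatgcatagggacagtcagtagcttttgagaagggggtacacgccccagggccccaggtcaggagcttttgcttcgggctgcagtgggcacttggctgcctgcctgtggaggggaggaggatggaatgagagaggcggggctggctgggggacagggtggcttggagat
Pgam2: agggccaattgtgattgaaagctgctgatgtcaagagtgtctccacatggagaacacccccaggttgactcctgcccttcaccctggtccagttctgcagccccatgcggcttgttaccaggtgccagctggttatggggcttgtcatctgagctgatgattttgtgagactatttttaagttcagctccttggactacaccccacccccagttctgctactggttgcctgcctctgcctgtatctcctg

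Total counts per library were 25035490 to 45243608. Levels are given in CPM, counts relative to library sizes scaled by TMM, a correction for RNA composition, within hearts, EC or CM, and per kilobase of annotated exon where different genes are set side by side. Differences were tested with edgeR's quasi-likelihood test and are given as log2 fold changes ± SE. A gene was called, or is said to have risen or fallen, where its p adjusted over all genes of the fit was under 0.05. Together the 36 genes took 0.998 to 1.60% of all counts in hearts, 0.771 to 1.16% in CM and 0.440 to 0.738% in EC. Some libraries stand apart in ways that touch these genes, although the labels name no batch. In hearts at homeostasis the libraries numbered 1 of both genotypes resembled the day 30 libraries in several members, such as Pfkfb2 (22.7 and 19 CPM, against 83.4 to 108 in the other 4), and in the Y-linked Ddx3y (54.9 and 50.8 CPM, against 77.1 to 101.96 in the other 4). Their summed level of 5 markers of the atrium was 2784 and 2733 CPM, against 29.2 to 55 CPM in the other 4. Among EC, the day 3 libraries held the female transcript Xist at 494 to 1085 CPM and those of homeostasis at 0.649 to 1.19 CPM, so sex and time after MI cannot be told apart in EC. EC library 2 of Q150X at day 3 had a summed level of the 10 endothelial markers of 943 CPM, against 5042 CPM in the other Q150X library and 7282 to 7545 CPM in wild type, and 3.64% of mitochondrial counts, against 35.5% in the other. Results that rest on these libraries are given with and without them, as is heart library 4 of wild type at day 7, which had the highest red cell marker sum of its group (844 CPM). That choice was made after the data were seen. Heart library 4 of Q150X at day 7, also the highest of its group (745 CPM), was kept. A stop codon need not alter a gene's count, so Vegfa itself checks no label: at homeostasis it was at 98.1 to 104 CPM in wild-type and 98.2 to 124 CPM in Q150X EC, 456 to 554 and 455 to 622 CPM in CM, and 177 to 654 and 149.6 to 620.5 CPM in hearts, where the libraries numbered 1 are the low ones. In bulk samples, fewer cells of a type and less RNA per cell cannot be told apart.

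At homeostasis CM and EC held different isozymes of the same pathway. In wild-type CM, 24 of the 36 members were higher and 8 lower than in wild-type EC, where 77.3% of all genes tested differed (35.7% higher, 41.6% lower). In Q150X the counts were 25 higher and 8 lower, against 78.8% of all genes. The median difference of the members was 1.26 on the log2 scale in wild type, and that of all genes -0.20. The TMM factors were 1.49 to 1.60 in EC and 0.551 to 0.707 in CM, and mitochondrial transcripts took at least 36.9% of counts in CM and 1.73 to 2.40% in EC. By library size alone the median of all genes moved to -1.56 in wild type and -1.45 in Q150X, and 7 of the called members then changed sign in wild type. Shares of an isozyme within its set are ratios within a library, which no library scaling alters. In this comparison CPM are on library sizes scaled over EC and CM together, so they differ from the CPM of each cell type given further on.

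The enolase of muscle, Eno3, was at 1615, 1305 and 1406 CPM in the 3 libraries of wild-type CM and 15.9, 12.7 and 13.1 CPM in wild-type EC. The widely expressed Eno1 was at 117, 123 and 129 CPM and 83.7, 98.7 and 108 CPM. Per kilobase, Eno3 was 97 to 97.7% of enolase in the 6 CM libraries and 27.4 to 37.1% in the 6 EC libraries, with no overlap. Eno3 was higher in CM (log2 fold change 6.69 ± 0.18 (SE), adjusted p = 5.7e-14), whereas Eno1, at 0.35 ± 0.12, adjusted p = 0.0145, turned to -1.01 by library size alone and lost its call without EC library 1 or 2 or CM library 3 (0.0616 to 0.284). Phosphoglycerate mutase was divided alike, with Pgam2, the muscle form, at 95.1 to 97.7% of the pair in CM and 26.5 to 34.5% in EC. Pgam2 was higher in CM by 5.97 ± 0.18 (SE) on the log2 scale, and Pgam1 did not pass the test in wild type (-0.30 ± 0.15, adjusted p = 0.0802). Of the 3 phosphofructokinases, which commit glucose to glycolysis, Pfkm made up 93.5 to 94.5% in CM. In EC the share of Pfkm was 37.2 to 43%, that of Pfkl 34.9 to 39.3% and that of Pfkp 21.9 to 24.8%.

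**Figure D1:**
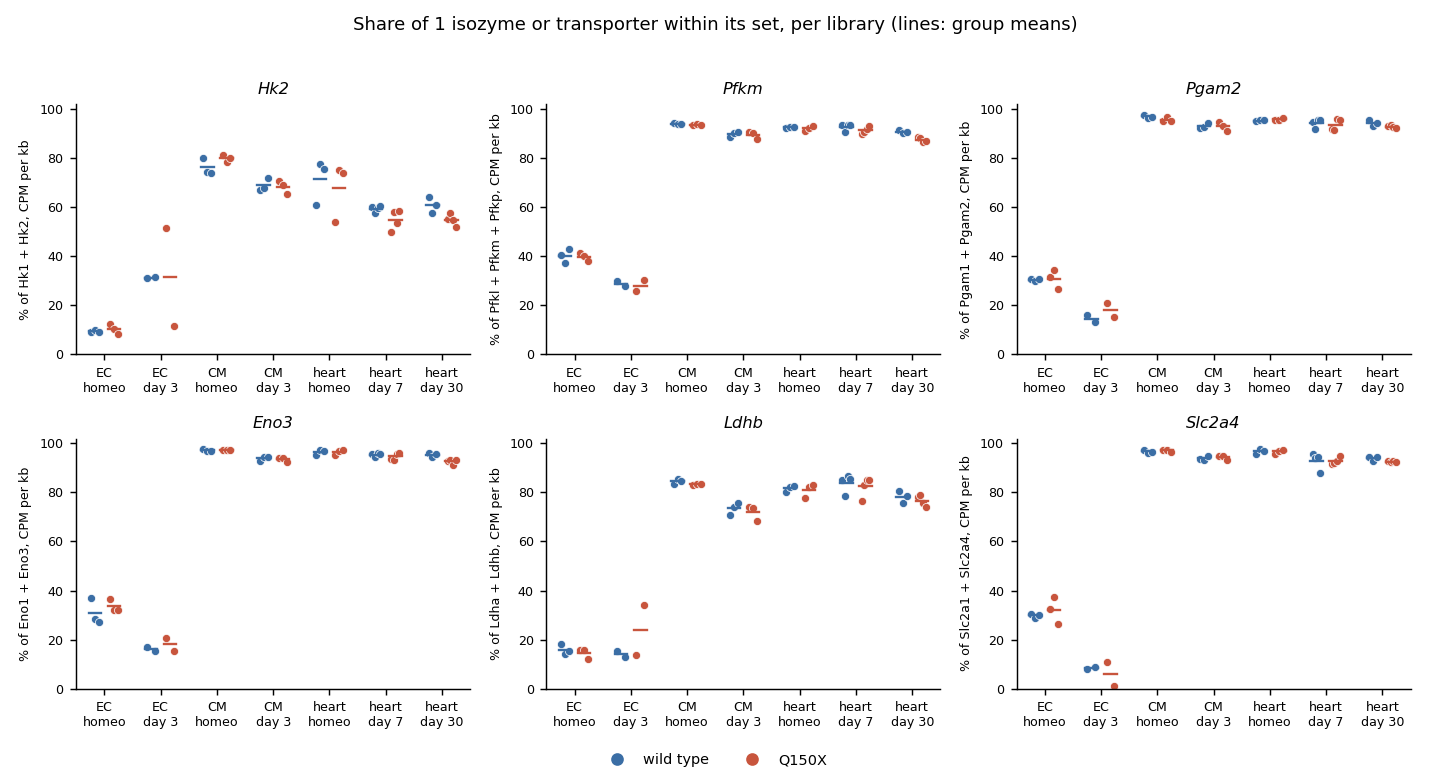
Share of 1 isozyme or transporter within its set (vertical axis, % of the summed CPM per kilobase) in each library of EC, CM and whole heart, by time; points are libraries, lines group means, blue wild type and red Q150X. The 6 CM libraries at homeostasis sit above the 6 EC libraries for all 6 genes, with Eno3 at 97 to 97.7% against 27.4 to 37.1%.

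Hexokinase, which traps glucose in the cell, was mostly Hk2 in CM (74.1 to 81.5% of Hk1 and Hk2) and mostly Hk1 in EC, where Hk2 was 8.28 to 12.3%. Hk2 levels in wild-type CM were 612, 519 and 615 CPM and in wild-type EC 7.79, 8.50 and 7.16 CPM, a difference of 6.22 ± 0.18 (SE) on the log2 scale. Lactate dehydrogenase, which interconverts pyruvate and lactate, was 83.1 to 85.3% Ldhb in CM and 12.1 to 18% in EC. Ldha was the most abundant glycolytic member in wild-type EC, at 143 ± 24.2 CPM per kilobase (mean ± SD, n = 3), next to Aldoa at 137 ± 8.84, a pair that did not differ beyond their spread. In wild-type CM the highest levels were those of Ldhb (751 ± 39.7 CPM per kilobase), Eno3 (579.9 ± 72.3) and Aldoa (529 ± 33.1), and in wild-type hearts those of Ldhb (819 ± 76.6), Eno3 (681 ± 45.3) and Aldoa (649 ± 34.2). Eno3 and Aldoa did not differ beyond their spread in either. Among the glucose carriers, the insulin-responsive Slc2a4 was 96.3 to 97.5% of the pair in CM and 26.5 to 37.4% in EC. Slc2a4 levels were 485, 536 and 579 CPM in wild-type CM, and those of Slc2a1, the basal carrier, 12.7, 20.8 and 20.1 CPM. In wild-type EC, Slc2a1 was at 21.8, 25.6 and 23.8 CPM and Slc2a4 at 9.47, 10.4 and 10.2 CPM. Slc2a4 was higher in CM (5.74 ± 0.19, adjusted p = 2.8e-13). Slc2a1 was lower (-0.41 ± 0.18, adjusted p = 0.0499), a call lost without EC library 2 or CM library 1 (0.0589 to 0.22). Pfkm (5.66 ± 0.14), Ldhb (5.93 ± 0.15) and Pfkfb2 (4.87 ± 0.15) were also higher in CM on the log2 scale.

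The kinase Pdk1 was at 309, 313 and 339 CPM in wild-type CM and 20.3, 19.1 and 19.6 CPM in EC, higher in CM by 4.02 ± 0.11 (SE) on the log2 scale. Pfkfb2, the cardiac form of the enzyme that makes fructose 2,6-bisphosphate, an activator of phosphofructokinase, was 73 to 84.8% of the 4 Pfkfb genes in CM. In EC, Pfkfb3 took 94.5 to 97% of that set, and its levels were 202, 203 and 171 CPM in wild-type EC and 3.76, 6.34 and 4.24 CPM in wild-type CM. Pfkfb3 was lower in CM (log2 fold change -5.33 ± 0.24 (SE), adjusted p = 4.3e-11). Other members lower in CM included Slc16a3 (-4.63 ± 0.21), Ndrg1 (-4.29 ± 0.18), Ankrd37 (-3.18 ± 0.41) and Epas1 (-1.85 ± 0.15), all log2 differences with SE. Epas1, the HIF subunit first described in endothelium, had the highest level per kilobase of all 36 in EC, 320.3 ± 42.2 CPM per kilobase in wild type. It was 92.6 to 93.6% of the 2 HIF alpha subunits per kilobase in EC and 65.1 to 71.1% in CM. Hif1a was at 98.7, 94.4 and 89.1 CPM in wild-type EC and 150.3, 169 and 167 CPM in wild-type CM, and its difference (0.78 ± 0.14) turned to -0.58 by library size alone. Ddit4, a stress-induced inhibitor of the growth kinase mTORC1, was at 107, 97.7 and 117 CPM in wild-type EC and 67.6, 64.9 and 109 CPM in wild-type CM. Its difference was not called in wild type (-0.42 ± 0.20, adjusted p = 0.0659). In whole hearts the shares of Eno3 (95.1 to 97.2%), Pgam2 (95.1 to 96.3%), Pfkm (91.2 to 93.3%) and Slc2a4 (95.7 to 97.7%) were near those of CM. The share of Epas1, 83.2 to 91.5%, lay between CM and EC without overlap with either. In the heart libraries numbered 1, Pfkfb2 was 31% of its set in wild type and 29.7% in Q150X, below all CM libraries, and Hk2 was 61.1% and 54.2% of Hk1 and Hk2. Tpi1 and Gpi1, which have no isozyme among the members, were also higher in CM. Tpi1, which interconverts the triose phosphates, was at 684, 653 and 697 CPM in wild-type CM and 61.4, 73.9 and 76.7 CPM in wild-type EC (3.26 ± 0.13, adjusted p = 2.3e-12). Gpi1, which turns glucose 6-phosphate into fructose 6-phosphate, was at 573, 608 and 649.6 CPM and 163, 161 and 181 CPM (1.86 ± 0.12, adjusted p = 7.6e-10). Neither was called in any comparison after MI or between the genotypes. Yet in wild-type EC, on the scaling within EC, both were higher at day 3 without overlap. Tpi1 was at 92.2, 111 and 115 CPM at homeostasis and then 257 and 264 CPM, and Gpi1 at 245, 241 and 272 CPM and then 383 and 373 CPM. In Q150X EC of day 3, Tpi1 was at 379 and 60.9 CPM and Gpi1 at 503 and 248 CPM.

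**Figure D2:**
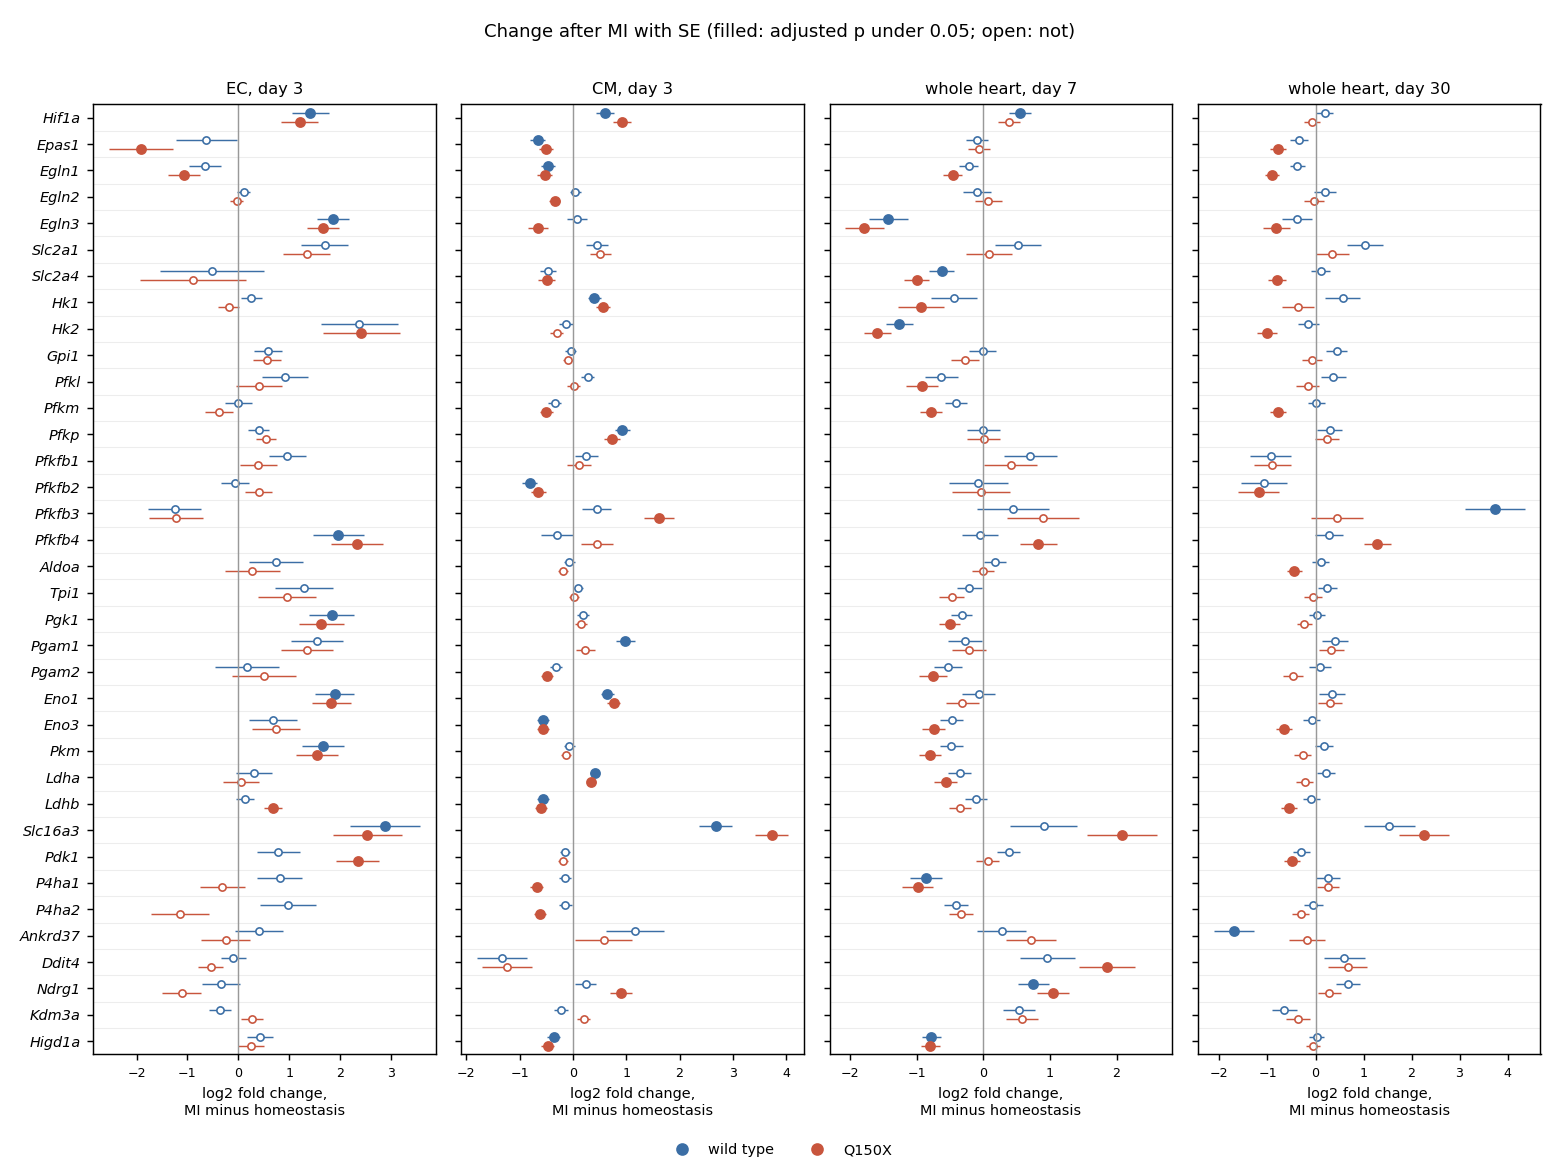
Log2 fold change after MI with its SE (horizontal axis) for the 36 members (rows, by role) in EC and CM at day 3 and whole hearts at days 7 and 30; blue is wild type, red Q150X, and filled points passed an adjusted p of 0.05. Slc16a3 is at 2.68 in wild-type CM, and Hk2 and Egln3 lie left of 0 at day 7 in both genotypes.

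In EC, some members of glycolysis and lactate export rose 3 days after MI. In wild type 7 of 36 rose and none fell (19.4% of the members), against 9.52% of all genes called (6.71% higher and 2.81% lower), and the median change of the members was 0.63 beside 0.012 for all genes. In Q150X 10 rose and 2 fell (33.3%), a share near the 33.8% of all genes (18.7% higher and 15.1% lower). All 7 members that rose in wild type also rose in Q150X, where they make up 58.3% of its 12 calls. The change of Slc16a3, which exports lactate, was the largest of the 7 in wild type. Its levels were 16.7, 18.9 and 21.1 CPM at homeostasis and 143 and 136 CPM at day 3 in wild type, and 25.7, 25.1 and 24 and then 263 and 26.8 CPM in Q150X. Both wild-type day 3 libraries lay far above homeostasis, while Q150X library 2 lay just above its own. The change was 2.88 ± 0.69 (log2 fold change ± SE, adjusted p = 0.036) in wild type and 2.54 ± 0.69, adjusted p = 0.0238 in Q150X.

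Among the enzymes of lower glycolysis, Eno1, Pgk1 and Pkm rose in both genotypes. Eno1 went from 126, 148 and 162 CPM to 507 and 577 CPM in wild type (1.90 ± 0.38, adjusted p = 0.0183). In Q150X Eno1 went from 155, 163 and 133 CPM to 798 and 271 CPM (1.83 ± 0.38, adjusted p = 0.00936). Pgk1, the first enzyme of glycolysis that yields ATP, went from 97.3, 114 and 114 CPM to 372 and 403 CPM in wild type (1.84 ± 0.45, adjusted p = 0.0376). For Pkm, the pyruvate kinase of most tissues, the wild-type levels were 313, 323 and 311 CPM and then 972 and 1032 CPM (1.67 ± 0.42, adjusted p = 0.0427). In Q150X, library 1 was the highest of all EC libraries for these 3 genes, with Pgk1 at 541 and 138 CPM and Pkm at 1399.8 and 405 CPM in libraries 1 and 2, and the changes were 1.64 ± 0.44, adjusted p = 0.0244 for Pgk1 and 1.55 ± 0.42, adjusted p = 0.0239 for Pkm. In both genotypes the groups did not overlap for these 3 genes. The share of Eno1 was 62.9 to 72.6% of enolase at homeostasis and 79.5 to 84.7% at day 3, and that of Pgam1 65.5 to 73.5% and then 79 to 86.8% of phosphoglycerate mutase, both without overlap and without a test.

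**Figure D3:**
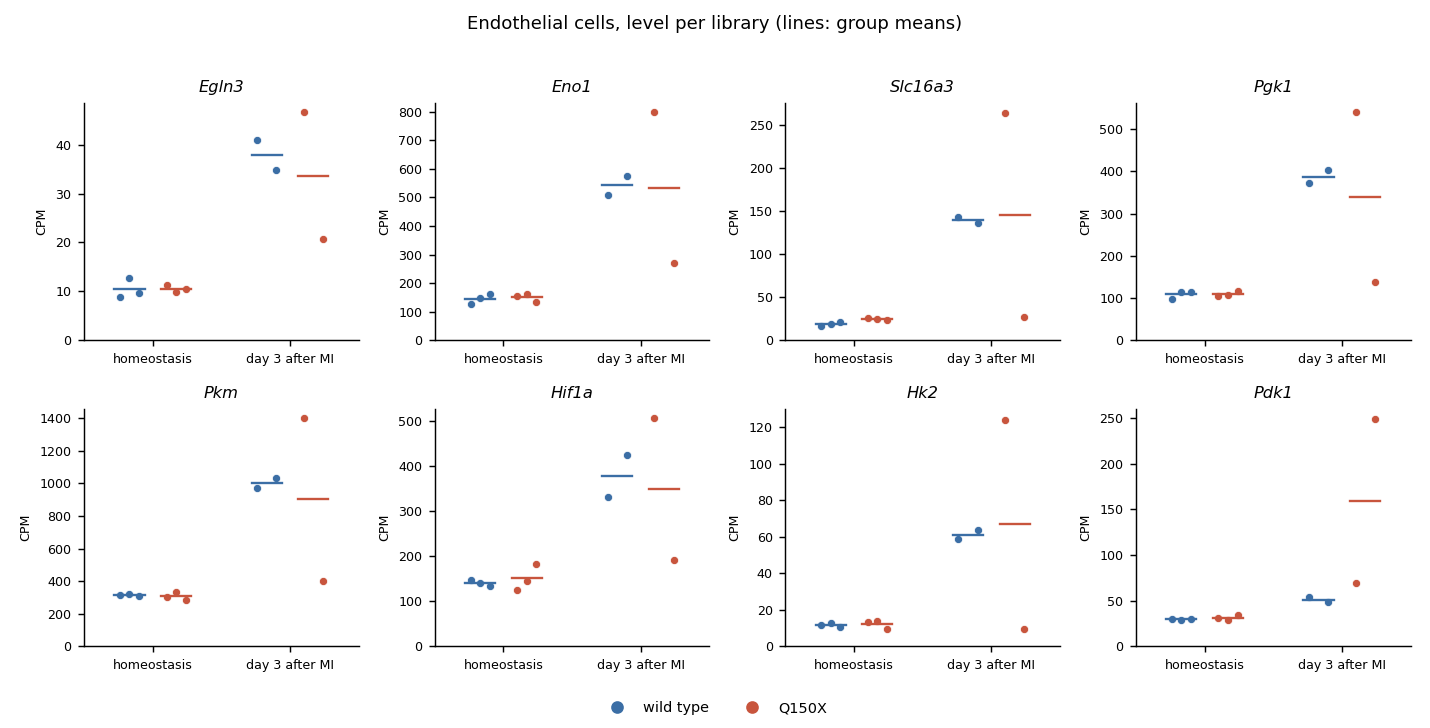
Levels of 8 members in CPM (vertical axis, from 0) in each EC library at homeostasis and day 3 after MI; points are libraries, lines group means, blue wild type and red Q150X. For Slc16a3 the wild-type libraries lie at 16.7 to 21.1 CPM at homeostasis and 136 to 143 CPM at day 3, and the 2 Q150X libraries of day 3 lie far apart.

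Of the HIF subunits and their hydroxylases, Hif1a and Egln3 rose in both genotypes, Epas1 and Egln1 fell in Q150X, and Egln2 was called in neither. Egln3, a HIF target that feeds back on HIF, went from 8.86, 12.6 and 9.62 CPM to 40.9 and 34.8 CPM in wild type (1.87 ± 0.32, adjusted p = 0.0092). In Q150X Egln3 went from 11.3, 9.95 and 10.4 CPM to 46.7 and 20.7 CPM (1.67 ± 0.32, adjusted p = 0.00634). Every day 3 library lay above all libraries of homeostasis. Hif1a went from 148, 142 and 134 CPM to 332 and 425 CPM in wild type (1.42 ± 0.36, adjusted p = 0.0452). In Q150X Hif1a levels were 125, 144 and 184 CPM and then 507 and 191 CPM (1.21 ± 0.36, adjusted p = 0.0345), with library 2 close to the highest level at homeostasis. Epas1 levels were 2062, 1673 and 1636 CPM and then 1183 and 1134 CPM in wild type, without a call, and 1654, 1979 and 2197 CPM and then 884 and 148 CPM in Q150X (-1.91 ± 0.64, adjusted p = 0.0477). Egln1, the main HIF hydroxylase, fell in Q150X (-1.07 ± 0.32, adjusted p = 0.0322) and was not called in wild type. Pfkfb4 rose in both genotypes from a low level, 3.04, 4.62 and 2.62 CPM to 14.1 and 12.7 CPM in wild type (1.97 ± 0.51, adjusted p = 0.0464) and 4.70, 3.61 and 3.11 CPM to 30.7 and 7.85 CPM in Q150X (2.34 ± 0.51, adjusted p = 0.0109). Its relative Pfkfb3, the main form in EC, was lower at day 3 without overlap and was not called in either genotype. Pfkfb3 was at 303, 304 and 257 CPM and then 107 and 136 CPM in wild type. In Q150X it was at 314, 328 and 523 CPM and then 268 and 64.3 CPM.

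Several members show how much Q150X library 2 of day 3 differs from the others. Pdk1 was at 30.6, 28.6 and 29.5 CPM at homeostasis and 53.9 and 48.5 CPM at day 3 in wild type. In Q150X Pdk1 was at 31.1, 28.5 and 33.9 CPM and then 68.9 and 248 CPM. Library 2 alone was far above the rest, and the change in Q150X was 2.35 ± 0.42, adjusted p = 0.00539. Ldhb, the other lactate dehydrogenase, was at 47.9, 43.2 and 35.3 CPM and then 59.4 and 75.5 CPM in Q150X (0.68 ± 0.17, adjusted p = 0.0193). In contrast Hk2 was at 11.7, 12.7 and 10.8 CPM and then 58.9 and 63.6 CPM in wild type. In Q150X Hk2 was at 13.6, 14 and 9.67 CPM and then 124 and 9.49 CPM, where library 2 was at the level of homeostasis. The change of Hk2 in Q150X (2.42 ± 0.76, adjusted p = 0.0401) turned to -0.42 without library 1. Slc2a1 levels, 32.7, 38.4 and 35.9 CPM and then 116 and 116 CPM in wild type and 41.7, 36.7 and 35.9 CPM and then 157 and 36.9 CPM in Q150X, showed the same split. Ldha was at 384, 536 and 502 CPM and then 561 and 617 CPM in wild type. In Q150X Ldha was at 533, 492 and 541 CPM and then 779 and 307 CPM, and Ddit4 at 134 and 168 CPM in wild type and 190.3 and 127 CPM in Q150X at day 3. Neither was called in either genotype.

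All EC groups share 1 estimate of the spread, so that library also bears on the wild-type calls. In the fit without it, 20 members rose and 5 fell in wild type, against 35.7% of all genes called, and 21 rose and 3 fell in Q150X, which then rests on 1 library assumed to vary like the other groups, against 37.5% of all genes. Slc16a3 was then at 2.88, adjusted p = 1.6e-09 in wild type, Hk2 at 2.38, adjusted p = 1.6e-07, Slc2a1 at 1.70, adjusted p = 1.8e-07 and Pfkfb3 at -1.26, adjusted p = 0.00106. With library 2 kept, leaving out any 1 wild-type library of day 3 ended all 7 wild-type calls (adjusted p for Egln3 0.0573 to 0.0712, for Eno1 0.085 to 0.139, for Slc16a3 0.146 to 0.167, for Pgk1 0.15 to 0.215, for Pkm 0.17 to 0.235, for Hif1a 0.138 to 0.309 and for Pfkfb4 0.204 to 0.205). Leaving out any 1 wild-type library of homeostasis ended all but that of Egln3 (adjusted p 0.0339 to 0.046 for Egln3, 0.0607 to 0.0782 for Eno1 and 0.108 to 0.127 for Slc16a3). In Q150X the calls lost, with the range of adjusted p, were those of Slc16a3 without homeostasis library 1, 2 or 3 or day 3 library 1 (0.0661 to 0.702), Pgk1 without homeostasis library 1, 2 or 3 or day 3 library 1 (0.0648 to 0.0816), Pkm without homeostasis library 1, 2 or 3 (0.0578 to 0.0741), Hif1a without homeostasis library 1, 2 or 3 or day 3 library 1 (0.0564 to 0.188), Hk2 without homeostasis library 1, 2 or 3 or day 3 library 1 (0.0909 to 0.115), Epas1 without homeostasis library 1, 2 or 3 (0.0814 to 0.105), Egln1 without homeostasis library 1, 2 or 3 (0.068 to 0.0852) and Ldhb without homeostasis library 3 (0.0564). Those of Pdk1, Egln3, Eno1 and Pfkfb4 held whichever library was left out.

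Markers of other cells moved with these changes. All 10 macrophage and leukocyte markers rose in EC at day 3 in both genotypes, with a summed level of 93 to 185 CPM at homeostasis and 2528 to 7383 CPM at day 3. Of 6 neutrophil markers 5 rose in wild type and 6 in Q150X, with a sum of 1.37 to 4.83 CPM at homeostasis and 66.6 to 1276 CPM at day 3. The 10 endothelial markers summed to 11263 to 13446 CPM at homeostasis and 7282 to 7545 CPM at day 3 in wild type, where none of them was called, while 6 of 10 fell in Q150X. The 8 markers of pericytes and smooth muscle summed to 3927 to 5787 CPM at homeostasis, to 2012 to 2153 CPM at day 3 in wild type, with none called, and to 984 and 201 CPM in Q150X, where all 8 fell. Those of fibroblasts summed to 687 to 1071 CPM at homeostasis, 2744 to 3849.6 CPM in wild type (2 of 8 rose) and 1855 and 246 CPM in Q150X (2 rose and 1 fell). Mitochondrial transcripts took 1.73 to 2.40% of counts at homeostasis and 17.6 to 18% at day 3 in wild type. Those of cardiomyocytes summed to 422 to 710 CPM at homeostasis, 1091 and 1219 CPM at day 3 in wild type and 1860 and 45.9 CPM in Q150X. Of these 10 markers 0 were called in either genotype. None of these marker sums was at 0 in any library. Their part in the rise of the glycolytic members was not tested.

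In CM at day 3 the widely expressed forms Eno1, Ldha, Hk1 and Pfkp rose and the muscle or heart forms Eno3 and Ldhb fell, in both genotypes. The muscle forms Pfkm, Pgam2 and Slc2a4 were not called in wild type, although their groups did not overlap. Pfkm was at 826 to 997 CPM at homeostasis and 650 to 795 CPM at day 3. Pgam2 was at 277 to 350 and then 239 to 267 CPM, and Slc2a4 at 344 to 404 and then 230 to 302 CPM. In wild type 7 members rose and 6 fell (36.1%), against 17.4% of all genes called (10.1% higher and 7.22% lower). In Q150X 8 rose and 13 fell (58.3%), against 27.0% of all genes (14.9% and 12.1%). Of the 13 calls in wild type, 12 were called in the same direction in Q150X (92.3% of the wild-type and 57.1% of the Q150X calls). By library size alone the median change of all genes was 0.30 in wild type and 0.27 in Q150X, in place of -0.0092 and -0.0046, and changes are given relative to the TMM scale.

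Eno1 levels were 83.1, 84.9 and 90.3 CPM at homeostasis and 149, 117 and 139.6 CPM at day 3 in wild type, and 88.8, 93.6 and 107 CPM and then 160.4, 140.4 and 191 CPM in Q150X. Eno3 levels were 1146, 898 and 981 CPM and then 635, 638 and 775 CPM in wild type, and 1055, 1153 and 1206 CPM and then 833, 732 and 749 CPM in Q150X. For both enolases the groups did not overlap in either genotype. Eno1 rose by 0.65 ± 0.12, adjusted p = 0.00237, in wild type and 0.76 ± 0.12, adjusted p = 4.1e-04, in Q150X, and Eno3 fell (-0.56 ± 0.11, adjusted p = 0.00361, and -0.56 ± 0.11, adjusted p = 0.00205). By library size alone Eno3 was not called in wild type (adjusted p = 0.139) or Q150X (0.11). The share of Eno3 in enolase, which no scaling alters, was 97.7%, 97% and 97.1% at homeostasis and 93%, 94.4% and 94.5% at day 3 in wild type. Ldhb levels were 1143, 1145 and 1251 CPM and then 724, 773 and 899 CPM in wild type (-0.56 ± 0.11, adjusted p = 0.00345), and 1166, 1247 and 1291 CPM and then 911, 834 and 696 CPM in Q150X (-0.60 ± 0.11, adjusted p = 0.00121). By library size alone the call in wild type was lost (0.107). Ldha, whose enzyme favours lactate, was at 473, 416 and 474 CPM and then 629.8, 569 and 609 CPM in wild type (0.41 ± 0.090, adjusted p = 0.00628). In Q150X Ldha was at 500.05, 524 and 539 CPM and then 674, 634 and 679 CPM (0.35 ± 0.090, adjusted p = 0.00947). Its share of lactate dehydrogenase was 14.7 to 16.9% in the 6 libraries of homeostasis and 24.3 to 31.6% in the 6 of day 3.

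**Figure D4:**
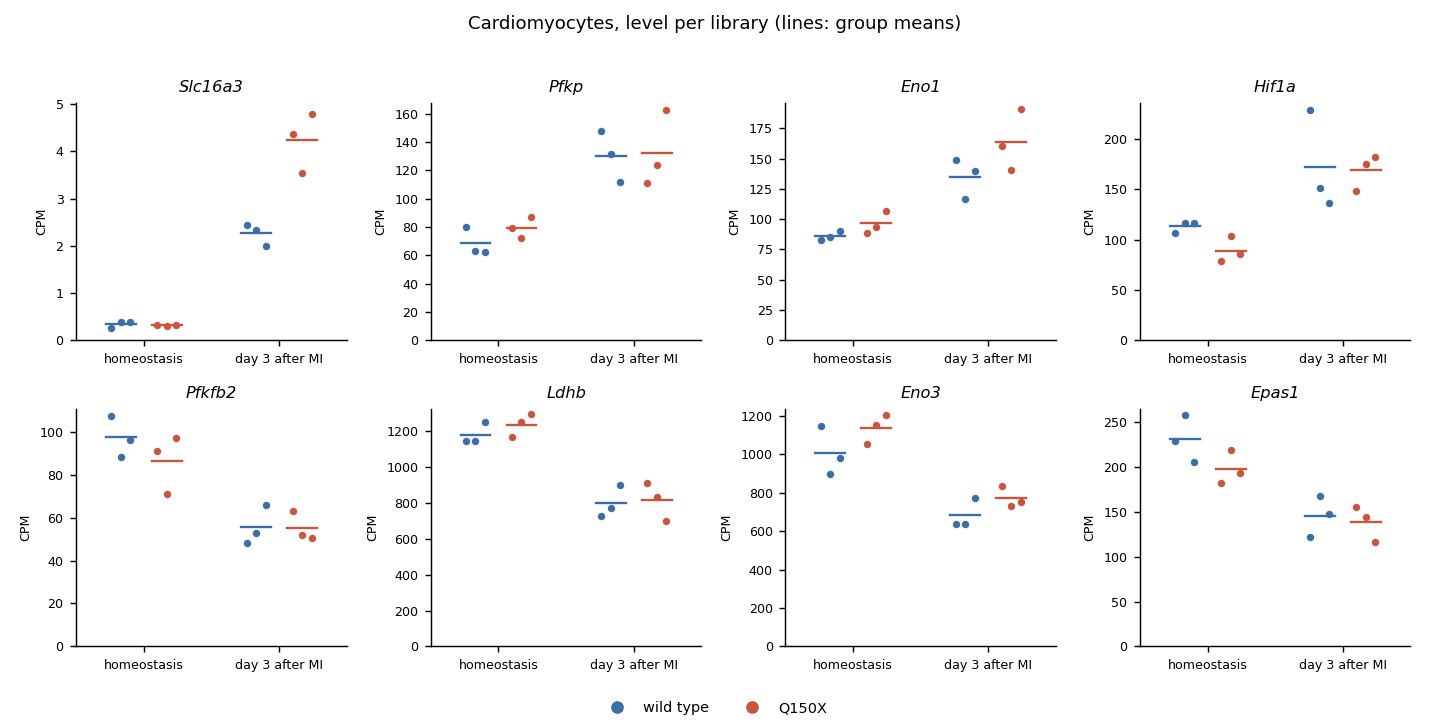
Levels of 8 members in CPM (vertical axis, from 0) in each CM library at homeostasis and day 3 after MI; points are libraries, lines group means, blue wild type and red Q150X. Slc16a3, Pfkp, Eno1 and Hif1a are higher and Pfkfb2, Ldhb, Eno3 and Epas1 lower at day 3 in all libraries of both genotypes, with Eno1 at 83.1 to 107 CPM and then 117 to 191 CPM.

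In upper glycolysis, the platelet-type phosphofructokinase Pfkp went from 79.7, 63.2 and 62.5 CPM to 148, 131 and 112 CPM in wild type (0.93 ± 0.15, adjusted p = 8.1e-04). In Q150X Pfkp went from 79.2, 72.3 and 86.8 CPM to 111, 124 and 163 CPM (0.74 ± 0.15, adjusted p = 0.00197). Pgam1 went from 19.1, 23.7 and 22.3 CPM to 48.2, 43.4 and 37 CPM in wild type (0.98 ± 0.18, adjusted p = 0.00272). In Q150X its levels, 41, 26.5 and 44.8 CPM and then 36.7, 43.5 and 51.5 CPM, overlapped and did not pass the test. Hk2 levels in wild type were 434, 357 and 429 CPM and then 339, 386 and 389.8 CPM, and in Q150X 425, 399 and 497 CPM and then 419, 331 and 316 CPM, with no call in either. Pfkfb2 fell from 107, 88 and 96.3 CPM to 48, 52.9 and 66 CPM in wild type (-0.81 ± 0.14, adjusted p = 0.00152). In Q150X Pfkfb2 went from 91.1, 71 and 97.2 CPM to 62.9, 51.8 and 50.5 CPM (-0.65 ± 0.14, adjusted p = 0.0033). Its relative Pfkfb3 was at 2.67, 4.36 and 2.96 CPM and then 3.65, 6.71 and 3.28 CPM in wild type, without a call, and at 2.14, 1.77 and 2.06 CPM and then 7.07, 5.73 and 5.44 CPM in Q150X (1.61 ± 0.28, adjusted p = 8.1e-04). The difference between these 2 changes was 1.16 ± 0.39, adjusted p = 0.552.

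Slc16a3 had the largest change of the 36 in CM, from a very low level. It was at 0.258, 0.390 and 0.395 CPM at homeostasis and 2.45, 2.34 and 1.99 CPM at day 3 in wild type. In Q150X Slc16a3 was at 0.328, 0.295 and 0.325 CPM and then 4.36, 3.55 and 4.80 CPM. The groups lay far apart in both genotypes (log2 fold change 2.68 ± 0.31 (SE), adjusted p = 5.9e-05 in wild type, and 3.73 ± 0.31, adjusted p = 3.2e-06 in Q150X). Pdk1 was at 219, 216 and 236 CPM and then 182, 202 and 222 CPM in wild type. In Q150X Pdk1 was at 227, 221 and 205 CPM and then 196, 204 and 177 CPM, without a call. Of the HIF subunits, Hif1a went from 107, 116 and 116 CPM to 228, 151 and 136 CPM in wild type (0.60 ± 0.16, adjusted p = 0.0212). In Q150X Hif1a went from 78.3, 103 and 85.4 CPM to 149, 175 and 182 CPM (0.92 ± 0.17, adjusted p = 0.00113). Epas1 went the other way, from 229, 257 and 206 CPM to 122, 167 and 148 CPM in wild type (-0.66 ± 0.13, adjusted p = 0.00359). In Q150X Epas1 went from 182, 218 and 193 CPM to 155, 144 and 117 CPM (-0.51 ± 0.13, adjusted p = 0.00972). The share of Hif1a in the pair was 28.9 to 34.9% at homeostasis and 46.2 to 64% at day 3. In Q150X both collagen prolyl 4-hydroxylase subunits fell, P4ha1 from 61.3, 57.4 and 69.6 CPM to 35.2, 43.6 and 38.9 CPM (-0.68 ± 0.12, adjusted p = 7.8e-04) and P4ha2 from 70.5, 50.1 and 60.5 CPM to 38.5, 42.1 and 36.9 CPM (-0.62 ± 0.11, adjusted p = 0.00109). Their wild-type levels were 50.8, 41.3 and 38.2 CPM and then 38.1, 41.1 and 38.4 CPM for P4ha1, and 47, 46.6 and 44.2 CPM and then 43.3, 43.4 and 38.3 CPM for P4ha2, and neither was called. The genotypes' changes were not shown to differ, at -0.53 ± 0.17, adjusted p = 0.52 for P4ha1 and -0.48 ± 0.16, adjusted p = 0.552 for P4ha2.

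Of the oxygen-sensing hydroxylases in CM, Egln1 fell in both genotypes (-0.47 ± 0.14 in wild type and -0.53 ± 0.14 in Q150X). Egln3 was at 75.7, 46 and 57.1 CPM and then 57.5, 64.3 and 67.6 CPM in wild type, without a call, and at 82.3, 92.3 and 125 CPM and then 75.4, 60.4 and 55 CPM in Q150X (-0.65 ± 0.19, adjusted p = 0.02). Higd1a, a mitochondrial protein induced by low oxygen, fell in both genotypes (-0.36 ± 0.12 and -0.47 ± 0.12). Ddit4 was at 47.9, 44.7 and 76 CPM and then 10.7, 16.4 and 39.9 CPM in wild type. In Q150X Ddit4 was at 36.5, 43.4 and 43.9 CPM and then 23.8, 11 and 17.8 CPM, and although every day 3 library lay below its homeostasis group it did not pass the test (-1.33 ± 0.47, adjusted p = 0.0851, and -1.23 ± 0.47, adjusted p = 0.0848). Slc2a1 was at 9.03, 14.3 and 14 CPM and then 15.4, 19.8 and 16.1 CPM in wild type. In Q150X Slc2a1 was at 11.8, 9.60 and 15.3 CPM and then 21.4, 14.6 and 16.4 CPM, also without a call. Of the calls, 9 of 13 in wild type and 16 of 21 in Q150X held whichever 1 library of the compared groups was left out. Those lost in wild type, with the range of adjusted p, were Hif1a without homeostasis library 1 or 3 or day 3 library 1 (0.0549 to 0.0945), Egln1 without homeostasis library 2 or 3 or day 3 library 1 or 2 (0.0511 to 0.13), Hk1 without homeostasis library 1 or 2 or day 3 library 1 or 2 (0.0919 to 0.151) and Higd1a without homeostasis library 1 or 3 or day 3 library 1 or 2 (0.0756 to 0.2). Those lost in Q150X were Epas1 without day 3 library 3 (0.0705), Egln1 without day 3 library 3 (0.0626), Egln2 without homeostasis library 1 or 3 or day 3 library 2 or 3 (0.059 to 0.116), Egln3 without homeostasis library 3 or day 3 library 2 or 3 (0.0754 to 0.11) and Slc2a4 without homeostasis library 1 or 3 or day 3 library 2 or 3 (0.0701 to 0.162).

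Markers of other cells moved in CM as well. All 10 macrophage and leukocyte markers rose in both genotypes, with a sum of 2.30 to 12.5 CPM at homeostasis and 103 to 272 CPM at day 3. The 8 fibroblast markers summed to 18.1 to 87.5 CPM and then 409.5 to 907 CPM (5 of 8 rose in wild type, 6 of 8 in Q150X). The sum of 10 cardiomyocyte markers was 58502 to 66702 CPM and then 39674 to 52207 CPM (4 of 10 fell in wild type, 5 of 10 in Q150X). Of the 6 neutrophil markers 3 were too low to test, and the sum was 0 to 0.361 CPM and then 1.70 to 4.82 CPM. Their part in the changes of the members was not tested.

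In whole hearts 7 days after MI, Hk2, Egln3, Higd1a, Slc2a4 and P4ha1 fell in both genotypes. In wild type 2 members rose and 5 fell (19.4%), against 13.7% of all genes called (7.65% higher and 6.07% lower). In Q150X 4 rose and 14 fell (50%), against 26.0% (13.8% and 12.3%), and the median change was -0.30 for the members and 0.063 for all genes. In wild type these medians were -0.10 and 0.054. Without the libraries that stand apart 1 member rose and 8 fell in wild type (17.8% of all genes called), and 6 rose and 10 fell in Q150X (28.8%). Hk2, which binds mitochondria in muscle, was at 247, 378 and 361 CPM at homeostasis and 122, 168, 149 and 107 CPM at day 7 in wild type. In Q150X Hk2 was at 438, 361 and 357 CPM and then 162, 140.1, 103 and 105 CPM. Every day 7 library lay below every library of homeostasis (log2 fold change -1.27 ± 0.20 (SE), adjusted p = 4.6e-04 in wild type, and -1.59 ± 0.21, adjusted p = 2.7e-05 in Q150X). Egln3 was at 51.5, 116 and 96.7 CPM and then 28.2, 49.2, 31.7 and 22 CPM in wild type (-1.43 ± 0.29, adjusted p = 0.00272). In Q150X Egln3 was at 119.5, 138 and 92 CPM and then 49.2, 34.9, 28.1 and 22.6 CPM (-1.79 ± 0.29, adjusted p = 2.4e-04). Higd1a was at 88, 108 and 93.6 CPM and then 61.6, 46.3, 66.3 and 50.3 CPM in wild type (-0.78 ± 0.14, adjusted p = 0.00104). In Q150X Higd1a was at 105, 97.7 and 90.8 CPM and then 47.3, 51.6, 59.98 and 66.3 CPM (-0.80 ± 0.14, adjusted p = 4.5e-04). For these 3 genes the groups did not overlap, and the calls held in both genotypes whichever library was left out and without the libraries that stand apart.

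Other falls at day 7 were less firm. Slc2a4 was at 391, 407 and 367 CPM and then 262, 239.8, 285 and 219 CPM in wild type (-0.63 ± 0.19, adjusted p = 0.0332). In Q150X Slc2a4 was at 657, 344 and 362 CPM and then 208, 212, 242 and 245 CPM (-1.002 ± 0.19, adjusted p = 8.4e-04). The groups did not overlap, although the wild-type call was lost without homeostasis library 1, 2 or 3 or day 7 library 1, 2 or 4 (0.0591 to 0.0942). P4ha1, a subunit needed to hydroxylate collagen, was at 51.1, 94.7 and 88.2 CPM and then 41.7, 48.4, 36.5 and 44.6 CPM in wild type (-0.86 ± 0.24, adjusted p = 0.0196). In Q150X P4ha1 was at 49.3, 113 and 94 CPM and then 49.5, 49.1, 36.3 and 37.7 CPM (-0.99 ± 0.24, adjusted p = 0.00458). In both genotypes homeostasis library 1 lay close to or among the day 7 libraries, and the wild-type call was lost without homeostasis library 2 or 3 or day 7 library 3 (0.0553 to 0.0962). In Q150X further enzymes fell, among them Pfkm (-0.79 ± 0.16, adjusted p = 0.00178), Pkm (-0.80 ± 0.17, adjusted p = 0.00219) and Eno3 (-0.75 ± 0.17, adjusted p = 0.00341). Their levels were 1541, 946 and 986 CPM and then 717, 622, 624 and 711 CPM for Pfkm, 1831, 957 and 986 CPM and then 796, 702, 684 and 701 CPM for Pkm, and 1883, 1157 and 1220.1 CPM and then 751, 723, 883 and 1025 CPM for Eno3. In all 3, homeostasis library 1 was the highest by far. Without the libraries that stand apart the values were -0.53, adjusted p = 0.00926 for Pfkm, -0.43, adjusted p = 0.0091 for Pkm and -0.49, adjusted p = 0.0241 for Eno3. The falls of Hk1, Pfkl, Pgam2, Pgk1 and Ldha in Q150X were lost without that library, and some without others, with adjusted p in brackets: Hk1 without homeostasis library 1 or day 7 library 2, 3 or 4 (0.091 to 0.671), Pfkl without homeostasis library 1 (0.169), Pgam2 without homeostasis library 1 (0.186), Pgk1 without homeostasis library 1 or day 7 library 3 or 4 (0.0558 to 0.153) and Ldha without homeostasis library 1 or day 7 library 2 or 3 (0.0509 to 0.312). Egln1 also fell in Q150X (-0.46 ± 0.14, adjusted p = 0.0239), a call lost without homeostasis library 1 or day 7 library 3 (0.0635 to 0.0784).

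Among the members that rose at day 7, Ndrg1, a gene induced by several stresses, was at 51.6, 26.9 and 28.9 CPM and then 49.6, 44.7, 78.5 and 67.5 CPM in wild type (0.75 ± 0.24, adjusted p = 0.0405), overlapping through homeostasis library 1, and at 29.3, 31.5 and 35.6 CPM and then 51.8, 72.4, 71.8 and 70.3 CPM in Q150X (1.05 ± 0.24, adjusted p = 0.00336), without overlap. The wild-type call was lost without homeostasis library 2 or 3 or day 7 library 3 or 4 (0.0985 to 0.167). Hif1a was at 52.8, 60.1 and 65.7 CPM and then 92, 101, 67.8 and 88.8 CPM in wild type (0.55 ± 0.17, adjusted p = 0.0325), a call lost without homeostasis library 1, 2 or 3 or day 7 library 1, 2 or 4 (0.0518 to 0.101). In Q150X its levels, 55.9, 82.2 and 72.3 CPM and then 116, 97, 76.4 and 77.2 CPM, overlapped and it was not called. Ddit4 was at 100.4, 70.4 and 53.3 CPM and then 119, 99.7, 212 and 150.03 CPM in wild type, without a call, and at 22.9, 50.8 and 70.4 CPM and then 113, 181, 249.6 and 155 CPM in Q150X (1.86 ± 0.42, adjusted p = 0.00377). Slc16a3 rose in Q150X (2.08 ± 0.52, adjusted p = 0.00658), from 3.53, 1.58 and 1.57 CPM to 8.34, 19.1, 5.54 and 4.60 CPM, with library 2 of day 7 the highest. Its wild-type levels were 4.53, 1.72 and 1.74 CPM and then 5.73, 5.73, 1.98 and 6.51 CPM, without a call. Pfkfb4 also rose in Q150X (0.82 ± 0.28, adjusted p = 0.0339), a call lost without homeostasis library 1 or 2 or day 7 library 2 or 3 (0.0587 to 0.104). Epas1 (386 to 536 CPM at homeostasis and 315 to 454 CPM at day 7), Slc2a1 (9.47 to 29.9 and 12.3 to 30.5 CPM) and Pdk1 (139 to 187 and 131 to 240.4 CPM) were not called in either genotype. The fibroblast marker sum was 801 to 1929 CPM at homeostasis and 1933 to 5741 CPM at day 7 (3 of 8 rose in wild type, 6 of 8 in Q150X). That of cardiomyocyte markers was 43907 to 68996 CPM and 38290.2 to 50521 CPM (0 of 10 called in wild type, 5 of 10 fell in Q150X). Their part in the changes of the members was not tested.

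At day 30 wild-type hearts differed from homeostasis in 1 member that rose, Pfkfb3, and 1 that fell, Ankrd37, against 8.93% of all genes called (5.45% higher and 3.49% lower). In Q150X 2 rose and 11 fell (36.1% of the members), against 29.7% (15.6% and 14.2%). Pfkfb3, the inducible enzyme that drives glycolysis, was at 18.8, 8.39 and 6.84 CPM at homeostasis and 205, 30.2 and 221 CPM at day 30 in wild type. All 3 day 30 libraries lay above homeostasis and libraries 1 and 3 far above library 2 (log2 fold change 3.74 ± 0.62 (SE), adjusted p = 0.00147). In Q150X its levels were 18.6, 9.998 and 8.90 CPM and then 9.46, 29.2, 13.8 and 15.8 CPM, which overlapped and were not called. Ankrd37, a HIF target, was at 0.974, 2.91 and 3.92 CPM and then 0.741, 1.09 and 0.536 CPM in wild type (-1.70 ± 0.42, adjusted p = 0.0181). Homeostasis library 1 lay among the day 30 libraries, and the call was lost without homeostasis library 2 or 3 or day 30 library 1 or 3 (0.0543 to 0.126). Without the libraries that stand apart, 7 members rose and 5 fell in wild type (34.0% of all genes called), among them Slc2a1 at 1.27, adjusted p = 1.9e-04 and Pfkfb2 at -1.48, adjusted p = 3.7e-05. The homeostasis library left out resembled day 30 in several members. Its Pfkfb2 was at 22.7 CPM, that of the others at 83.4 and 89.6 CPM and that of day 30 at 27.7 to 36.7 CPM. In this fit time after MI and what set that library apart cannot be told apart.

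**Figure D5:**
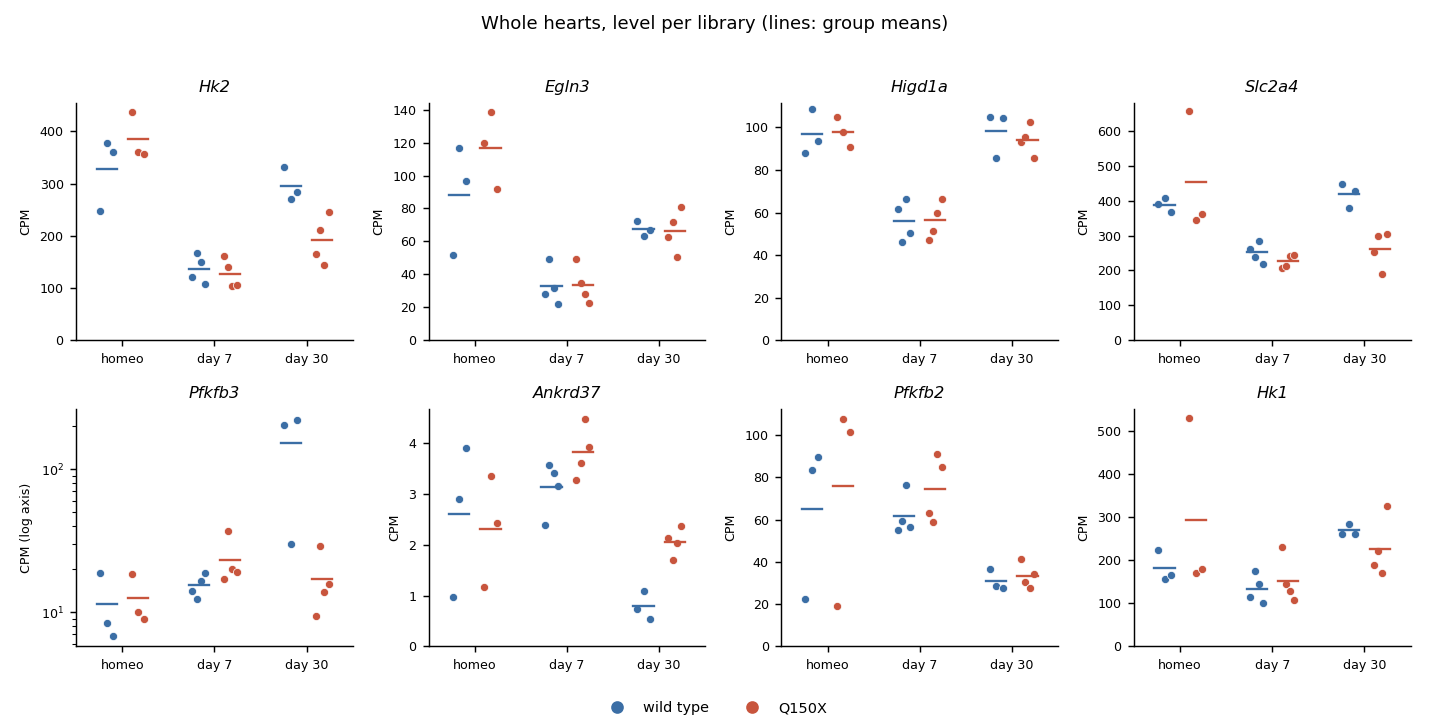
Levels of 8 members in CPM (vertical axis, from 0 except for Pfkfb3, which has a log axis) in each whole-heart library at homeostasis and days 7 and 30 after MI; points are libraries, lines group means, blue wild type and red Q150X. Hk2, Egln3 and Higd1a dip at day 7 in both genotypes, and Pfkfb3 at day 30 is at 205, 30.2 and 221 CPM in wild type.

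In Q150X hearts at day 30 Hk2, the muscle glucose transporter Slc2a4 and the muscle phosphofructokinase Pfkm were among the 11 members that fell, while Slc2a1, Hk1, Gpi1, Pfkl and Pfkp were not called. Hk2 was at 438, 361 and 357 CPM and then 165, 212, 145 and 246 CPM (-1.01 ± 0.20, adjusted p = 0.00141). Slc2a4 was at 657, 344 and 362 CPM and then 254, 298, 191 and 304 CPM (-0.80 ± 0.19, adjusted p = 0.0041), and Pfkm at 1541, 946 and 986 CPM and then 625, 724, 524 and 816 CPM (-0.78 ± 0.16, adjusted p = 0.00176). No day 30 library overlapped with homeostasis for these 3 genes. Egln1 was at 543, 467 and 482 CPM and then 243, 294, 209 and 322 CPM (-0.90 ± 0.14, adjusted p = 2.6e-04), and Epas1 at 419, 386 and 387 CPM and then 179, 218, 207 and 322 CPM (-0.78 ± 0.17, adjusted p = 0.0025), again without overlap. Eno3 was at 1883, 1157 and 1220.1 CPM and then 955, 993, 719.6 and 938 CPM (-0.66 ± 0.17, adjusted p = 0.00733), a call lost without homeostasis library 1 (0.0525). Pfkfb4 was at 2.69, 2.65 and 3.88 CPM and then 8.39, 6.36, 8.89 and 6.38 CPM (1.29 ± 0.28, adjusted p = 0.00226), and Slc16a3 at 3.53, 1.58 and 1.57 CPM and then 10.6, 12.2, 10.2 and 9.43 CPM (2.25 ± 0.52, adjusted p = 0.0037), both higher in every day 30 library. Egln3 fell to 62.7, 71.6, 50.4 and 80.7 CPM (-0.81 ± 0.28, adjusted p = 0.0374) and Pdk1 from 139, 186 and 187 CPM to 117, 129.9, 95.8 and 145 CPM (-0.48 ± 0.17, adjusted p = 0.0373), where 1 library of each group overlapped. The others called were Ldhb (-0.56 ± 0.17), Aldoa (-0.44 ± 0.16) and Pfkfb2 (-1.19 ± 0.44). Of all 13 calls 7 held whichever library was left out. Beside Eno3 the calls lost were those of Egln3 without homeostasis library 1 or 2 or day 30 library 1 or 3 (0.0689 to 0.144), Pdk1 without homeostasis library 2 or 3 or day 30 library 1 or 3 (0.0796 to 0.138), Ldhb without homeostasis library 1 or day 30 library 3 (0.056 to 0.081), Aldoa without homeostasis library 1 or day 30 library 1 or 3 (0.0779 to 0.424) and Pfkfb2 without homeostasis library 2 or 3 or day 30 library 1, 2, 3 or 4 (0.0593 to 0.223).

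Without the libraries that stand apart 9 members rose and 11 fell in Q150X hearts at day 30 (44.3% of all genes called), with Hk2 at -0.90, adjusted p = 0.00127 and Eno1 at 0.91, adjusted p = 3.2e-05. Here too the homeostasis library left out resembled day 30 in some members, such as Pfkfb2 (19 CPM, with 27.5 to 41.3 CPM at day 30). In others it was the homeostasis library furthest from day 30, such as Pfkm (1541 CPM, with 524 to 816 CPM at day 30). In this fit too, time after MI and what set that library apart cannot be told apart. In wild type the levels of Hk2 were 332, 271 and 284 CPM, of Egln3 72.6, 63.5 and 67 CPM, of Hif1a 58.6, 69.7 and 75.3 CPM and of Epas1 377, 316 and 351 CPM at day 30, with no call. Ldha was at 593, 619 and 592 CPM at homeostasis, 467, 549.9, 442 and 417 CPM at day 7 and 709, 692 and 702 CPM at day 30 in wild type, also with no call. The macrophage and leukocyte marker sum was 263 to 380.4 CPM at homeostasis and 582 to 906 CPM at day 30 in wild type (5 of 10 rose), and 196 to 358 CPM and then 662 to 1758 CPM in Q150X (10 of 10 rose). The cardiomyocyte marker sum was 44317 to 49058 CPM in wild type and 26732 to 41079.95 CPM in Q150X at day 30, and 7 of 10 had fallen in Q150X. Their part in the changes of the members was not tested.

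Between the genotypes, 1 member was called in 1 of the 7 comparisons. In hearts at day 30 Pfkfb3 was lower in Q150X (log2 fold change -3.16 ± 0.54 (SE), adjusted p = 0.018), where 0.443% of all genes were called (0.291% lower). Its levels were 205, 30.2 and 221 CPM in wild type and 9.46, 29.2, 13.8 and 15.8 CPM in Q150X, so that wild-type library 2 and Q150X library 2 lay side by side. Other tissue markers also varied among these libraries. The sum of 4 adipocyte markers was 12.8, 0.148 and 21.3 CPM in wild-type libraries 1 to 3 and 0.670 to 43 CPM in Q150X. The highest of these was Q150X library 2, with Pfkfb3 at 29.2 CPM. Skeletal muscle markers summed to 3.94, 3.57 and 89.4 CPM in wild type and 2.06 to 8.39 CPM in Q150X. Their part in the difference was not tested. The call was lost without wild-type library 1 (adjusted p = 0.102) or 3 (0.134) and without Q150X library 1 (0.0782) or 3 (0.083). The difference in its change since homeostasis was -3.29 ± 0.78, adjusted p = 0.258, which did not pass in edgeR and passed in DESeq2 (adjusted p = 0.0342) and without wild-type library 2 (0.016). Next by p was Slc2a4, at 447, 379 and 428 CPM in wild type and 254, 298, 191 and 304 CPM in Q150X (-0.68 ± 0.19, adjusted p = 0.125). Its groups did not overlap, and it passed in the fit without the libraries that stand apart (-0.68, adjusted p = 0.0154). No library left out of that fit belongs to the compared groups, which share their estimate of the spread with all heart groups. In that fit 1 member was higher and 4 lower (3.91% of all genes called), the others being Pfkm (-0.56, adjusted p = 0.0237), Epas1 (-0.59, adjusted p = 0.0454), Pfkfb3 and Ankrd37 (1.36, adjusted p = 0.0154). Pfkm, next to Pfkfb3 by p in the interaction, had a difference in change since homeostasis of -0.80 ± 0.24, adjusted p = 0.364.

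In the other 6 genotype comparisons no member was called by edgeR, and 0% of all genes were called in each. At an unadjusted p under 0.05 the members numbered 0 in hearts at homeostasis, 0 at day 7, 1 in EC at homeostasis, 4 in EC at day 3, 10 in CM at homeostasis and 2 in CM at day 3. DESeq2 called 0, 0, 0, 4, 4 and 0 members in the same order. Shares of all genes at that unadjusted p, or by DESeq2, are not reported here. These counts are therefore not a result about the members. In hearts at homeostasis the smallest p was that of Hk1, at 224, 156 and 166 CPM in wild type and 529.9, 169.6 and 179 CPM in Q150X (0.69 ± 0.37, adjusted p = 1). Q150X library 1 alone was high, and without it the value was -0.064. Pfkfb4 followed (-0.49 ± 0.29, adjusted p = 1), at 6.40, 2.57 and 3.96 CPM and 2.69, 2.65 and 3.88 CPM, and was at 0.0021 without the libraries numbered 1. At day 7 they were Slc16a3 (0.91 ± 0.45, adjusted p = 1) and Pdk1 (-0.26 ± 0.16, adjusted p = 1), both with overlapping groups: Slc16a3 was at 5.73, 5.73, 1.98 and 6.51 CPM in wild type and 8.34, 19.1, 5.54 and 4.60 CPM in Q150X, Pdk1 at 228, 201, 240.4 and 185 CPM and 202, 212, 131 and 168 CPM.

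In EC at homeostasis Ddit4 had the smallest p, at 161, 147 and 176 CPM in wild type and 214, 192 and 289 CPM in Q150X (0.52 ± 0.22, adjusted p = 1), without overlap, followed by Pfkfb1, at 0.596, 1.15 and 0.751 CPM and 1.57, 1.11 and 1.32 CPM (0.68 ± 0.34, adjusted p = 1). In EC at day 3 they were Pdk1 (1.64 ± 0.47, adjusted p = 0.143), which is high in Q150X library 2, and Kdm3a, a HIF-induced histone demethylase, at 93.9 and 84.2 CPM and 115 and 182 CPM (0.74 ± 0.24, adjusted p = 0.151). Both were highest of all EC libraries in Q150X library 2, at 248 and 182 CPM. Without library 1 the values of the members in Q150X are those of library 2 alone. Without library 2, 7 were called, all higher in Q150X library 1 (6.04% of all genes called), so the 2 Q150X libraries give different answers. In CM at homeostasis P4ha1 was at 50.8, 41.3 and 38.2 CPM and 61.3, 57.4 and 69.6 CPM (0.53 ± 0.12, adjusted p = 0.139) and Egln2 at 21.6, 22.6 and 23.6 CPM and 31.2, 28.4 and 32.1 CPM (0.44 ± 0.10, adjusted p = 0.152), both without overlap. Both passed in DESeq2 (adjusted p = 0.0134 and 0.013) and with no filter on low counts (0.00126 and 0.0427). P4ha1 also passed without wild-type library 1 (0.0375). In CM at day 3 Slc16a3 was higher in all 3 Q150X libraries (4.36, 3.55 and 4.80 against 2.45, 2.34 and 1.99 CPM) and did not pass (0.91 ± 0.25, adjusted p = 1), and Eno1 followed at 0.28 ± 0.12, adjusted p = 1.

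No member's change after MI was shown to differ between the genotypes in any of the 4 interactions, and 0% of all genes were called in each by edgeR. At an unadjusted p under 0.05 the members numbered 1 in hearts at day 7, 9 at day 30, 2 in EC and 9 in CM, and DESeq2 called 0, 1, 0 and 0. Here too the shares of all genes by these criteria are not reported, so the counts are not a result about the members. At day 7 the smallest p values were those of Pfkfb4 (0.88 ± 0.39, adjusted p = 1) and Slc16a3 (1.18 ± 0.70, adjusted p = 1). In EC they were those of P4ha2 (-2.12 ± 0.79, adjusted p = 0.379) and Pdk1 (1.56 ± 0.60, adjusted p = 0.379), which both passed without Q150X library 1 of day 3 (adjusted p = 2.1e-05 and 6.2e-07) and rest on library 2. A call in 1 genotype alone, as for Pdk1 in EC or P4ha1 in CM, is therefore not a shown difference.

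Other genes of the same pathways, from one list for each pathway, are given by their counts. Of 28 further genes known to rise in low oxygen, 7 rose and 3 fell of 28 tested in wild-type hearts at day 7 (13.7% of all genes called) and 8 rose and 5 fell of 28 tested in Q150X (26.0%). In wild type they included Bnip3, which marks mitochondria for removal (2.10 ± 0.19, adjusted p = 2.7e-06), and Lox, which crosslinks collagen (4.29 ± 0.46, adjusted p = 1.6e-05), among those that rose, and the mitochondrial adenylate kinase Ak4 (-1.42 ± 0.23, adjusted p = 3.9e-04) among those that fell. In hearts at day 30 4 rose and 0 fell of 28 tested in wild type (8.93% of all genes) and 7 rose and 2 fell of 28 tested in Q150X (29.7%). In EC at day 3 3 rose and 0 fell of 28 tested in wild type (9.52% of all genes), with a median log2 change of 0.35, and 5 rose and 4 fell of 28 tested in Q150X (33.8%), with a median of -0.076. Those called in wild-type EC included Hmox1, which degrades haem (4.19 ± 1.001, adjusted p = 0.0353) and Mif (1.70 ± 0.33, adjusted p = 0.0162). In CM at day 3 6 rose and 3 fell of 27 tested in wild type (17.4% of all genes) and 10 rose and 5 fell of 27 tested in Q150X (27.0%). In wild type Hmox1 (3.10 ± 0.34, adjusted p = 3.0e-04) and P4hb, the partner subunit of P4ha1 and P4ha2 (0.87 ± 0.11, adjusted p = 9.9e-05), were among those that rose. Of 12 other regulators of HIF, 1 rose and 2 fell of 12 tested in hearts at day 7 in wild type (13.7% of all genes called) and 1 rose and 2 fell of 12 tested in Q150X (26.0%). In wild type this included Hif3a, a HIF subunit that can restrain the others, which rose (2.58 ± 0.38, adjusted p = 2.1e-04) and Hif1an, an asparagine hydroxylase of HIF, which fell (-0.71 ± 0.19, adjusted p = 0.0162).

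Of 21 other genes of glucose uptake and glycolysis, 2 rose and 1 fell of 19 tested in EC at day 3 in wild type (9.52% of all genes called) and 2 rose and 1 fell of 19 tested in Q150X (33.8%). In wild type Hk3, the hexokinase of blood cells (5.40 ± 0.87, adjusted p = 0.00769), and Aldoc (3.49 ± 0.68, adjusted p = 0.0154) rose and the carrier Slc2a3 fell (-0.96 ± 0.19, adjusted p = 0.0174). In CM at day 3 1 rose and 3 fell of 18 tested in wild type (17.4% of all genes called), with Hk3 up (4.58 ± 0.67, adjusted p = 3.9e-04), and 2 rose and 4 fell of 18 tested in Q150X (27.0%). The macrophage and leukocyte markers given above rose in the same comparisons. Among 9 genes that control entry of pyruvate into mitochondria, Pdk4 rose in hearts at day 7 in wild type (3.11 ± 0.49, adjusted p = 4.7e-04) and Q150X (3.07 ± 0.49, adjusted p = 2.5e-04), while Pdhb fell in both (-0.53 ± 0.13, adjusted p = 0.0116, and -0.81 ± 0.13, adjusted p = 2.5e-04). In hearts at day 30 0 rose and 0 fell of 9 tested in wild type (8.93% of all genes called) and 0 rose and 7 fell of 9 tested in Q150X (29.7%). Of 11 glycogen genes, 0 rose and 1 fell of 11 tested in wild-type hearts at day 7 (13.7% of all genes called), namely Ppp1r3c, which targets a phosphatase to glycogen (-1.27 ± 0.32, adjusted p = 0.0122), and 0 rose and 4 fell of 11 tested in Q150X (26.0%). At day 30 0 rose and 0 fell of 11 tested in wild type (8.93% of all genes called) and 0 rose and 5 fell of 11 tested in Q150X (29.7%). Between genotypes, Bhlhe40, a repressor induced by low oxygen, was lower in Q150X hearts at day 30 (-0.88 ± 0.18, adjusted p = 0.0301).

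Several members have near-identical copies in the mouse genome. How reads shared with such copies were counted is not given in the sources used here. Annotated copies held few reads: Eno1b had 1.48% of the counts of Eno1, Pgam1-ps2 1.26% of those of Pgam1, Pgk1-rs7 0.418% of those of Pgk1 and Ldha-ps2 0.219% of those of Ldha. These 4 members are uncertain to that extent, and strandedness of the counting is not given in the sources used here.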

How the data were processed

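Bulk RNA was extracted with Trizol, 2 µg per library, per the labels. The authors deposited raw counts per gene for 43 libraries in 14 groups, and all values are whole numbers. Per the submitters' processing notes HISAT2, kallisto and build GRCm39 were used. Which of them made the counts, and with what annotation, is not given in the sources used here. Symbols and exon lengths came from GENCODE vM21 by gene identifier (52029 of 57010 matched). Hearts, EC, CM, and EC with CM at homeostasis were each fitted with edgeR 4.0.16 in R 4.3.3 (TMM scaling, the robust quasi-likelihood test, a mean for each group, genes kept at a count of 10 and a total of 15). Calls are at p under 0.05 after Benjamini and Hochberg's adjustment across every gene fitted, and each SE was obtained from the log2 fold change and its F. There were 21 comparisons, and no library pair was identical. The members and lists were chosen with earlier results of these data known. Members were named by rule: per comparison up to 8 called members of smallest p, or with fewer than 3 called these and the 2 of smallest p, 6 isozyme sets in CM and EC, and 8 members (Hif1a, Epas1, Egln3, Slc2a1, Hk2, Pdk1, Ldha, Ddit4) throughout, plus up to 3 called genes per other list and comparison. A few further members are named as examples, chosen after their values were seen. Some genes of the other lists that this rule would name are not reported here.

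Alternatives were DESeq2 1.42.0 size factors in edgeR, library size alone, no filter, DESeq2, the replicate number as a block in a fit of the compared groups, and leaving out each library. Added after the data were seen were leaving out the 4 libraries that stand apart and, for CM against EC, library size without mitochondrial genes. Same-numbered libraries deviated together in hearts at homeostasis (r = 0.379, 0.415 and 0.630 in 3 pairs), as did those numbered 2 and 3 crosswise (r = 0.351 and 0.376), so the agreement separates library 1 from the others and does not show pairing by number, and the block changed no call there. The fits were tested on simulated data. Python 3.11.15 made the tables (pandas 2.3.3) and the figures (matplotlib 3.10.9).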

Additional observations from a re-analysis of the deposited data

Results flagged for a closer look

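In 7 of 108 sets of 4 heart libraries, the highest or lowest library lay far from the other 3 by Dixon's test, which chance flags in about 1 of 20 sets. Wild-type library 3 at day 7 had the lowest Slc16a3 (1.98 CPM, the others 5.73 to 6.51 CPM). Of the Q150X libraries at day 7, library 4 had the highest Egln2 (59.5 CPM, the others 50.2 to 51.6 CPM) and the lowest Slc2a1 (13.7 CPM, the others 18.8 to 19.1 CPM). Library 2 had the highest Pfkfb3 (36.7 CPM, the others 17.1 to 19.97 CPM). Library 1 had the highest Pkm (796 CPM, the others 684 to 702 CPM) and the lowest Ndrg1 (51.8 CPM, the others 70.3 to 72.4 CPM). At day 30 Q150X library 4 had the highest Pfkp (139.5 CPM, the others 94.1 to 99.3 CPM).

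After MI at day 3 in wild type, 3 members were higher in every EC library and lower in every CM library than at homeostasis (8.33% of the members, against 5.08% of all genes tested in both), and the difference between the cell types was not tested. On the log2 scale the change of Eno3 was 0.68 in EC and -0.56 in CM, that of P4ha2 0.98 in EC and -0.14 in CM and that of Higd1a 0.43 in EC and -0.36 in CM. The cardiomyocyte marker sum in wild-type EC was 553 to 667 CPM at homeostasis and 1091 and 1219 CPM at day 3. Its part in the change of Eno3 in EC was not tested.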

How the results depend on the processing

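The changes of called members and of some others named kept their direction and their side of the threshold in 178 of 180 cases with DESeq2 size factors in edgeR, 172 of 180 with DESeq2, 162 of 180 with no filter, 141 of 180 by library size alone, 136 of 180 with the replicate block and 980 of 1151 with 1 library left out. The counts of called members are not part of this tally and follow where they moved. In brackets is the reported count. Shares of all genes called in these settings are given above for some and are not reported here for the rest. The counts therefore do not show whether the members moved apart from other genes. With DESeq2, the number of members called was 5 for the genotype in hearts at day 30 (1), 4 for the genotype in EC at day 3 (0), 4 for the genotype in CM at homeostasis (0), 4 for MI in wild-type hearts at day 30 (2) and 1 for the interaction in hearts at day 30 (0). With no filter on low counts, the number of members called was 5 for the genotype in CM at homeostasis (0) and 2 for the interaction in CM (0). By library size alone, the number of members called was 12 for MI in wild-type EC (7) and 8 for MI in Q150X hearts at day 30 (13). With the replicate number as a block, the number of members called was 2 for the genotype in hearts at day 30 (1), 4 for MI in wild-type hearts at day 7 (7), 0 for MI in wild-type hearts at day 30 (2), 26 for MI in wild-type EC (7), 5 for MI in Q150X hearts at day 7 (18), 6 for MI in Q150X hearts at day 30 (13) and 0 for MI in Q150X EC (12). Without the libraries that stand apart, the number of members called was 5 for the genotype in hearts at day 30 (1), 7 for the genotype in EC at day 3 (0), 12 for MI in wild-type hearts at day 30 (2), 25 for MI in wild-type EC (7), 20 for MI in Q150X hearts at day 30 (13) and 24 for MI in Q150X EC (12). Leaving out each compared library in turn gave 0 members for the genotype in hearts at homeostasis, the genotype in hearts at day 7, the genotype in EC at homeostasis, the genotype in CM at day 3, the interaction in hearts at day 7 and the interaction in CM. The other ranges were 0 to 2 for the genotype in hearts at day 30, 0 to 31 for the genotype in EC at day 3, 0 to 2 for the genotype in CM at homeostasis, 3 to 6 for MI in wild-type hearts at day 7, 1 to 8 for MI in wild-type hearts at day 30, 0 to 1 for MI in wild-type EC, 9 to 14 for MI in wild-type CM, 12 to 20 for MI in Q150X hearts at day 7, 8 to 16 for MI in Q150X hearts at day 30, 4 to 24 for MI in Q150X EC, 16 to 22 for MI in Q150X CM, 0 to 1 for the interaction in hearts at day 30, 0 to 30 for the interaction in EC, 31 to 33 for CM against EC in wild type and 31 to 33 for CM against EC in Q150X. By library size alone, members called higher in CM turned to lower, in wild type Hif1a at -0.58, Hk1 at -0.080, Pfkl at -0.11, Pfkp at -0.61, Eno1 at -1.01, Ldha at -0.31 and P4ha2 at -0.45, and in Q150X Egln2 at -0.88, Hk1 at -0.12, Pfkp at -0.41, Pgam1 at -0.80, Eno1 at -0.78, Ldha at -0.14 and P4ha2 at -0.22. By library size without mitochondrial genes those below 0 were Eno1 at -0.21 in wild type and Egln2 at -0.23, Pgam1 at -0.15 and Eno1 at -0.12 in Q150X. Other values with the opposite sign were Hk1 at -0.064 for the genotype in hearts at homeostasis, without Q150X library 1, Pfkfb4 at 0.0021 for the genotype in hearts at homeostasis, without the libraries that stand apart and Hk2 at -0.42 for MI in Q150X EC, without Q150X library 1 of day 3. Leaving out 1 library, these values ranged from -0.064 to 0.96 for Hk1 and from -0.42 to 3.29 for Hk2. The cause of these moves was not tested. No other alternative moved a count of called members by more than 1.5 times, and the pairing by replicate number changed no other count by that much. With 2 to 4 libraries a group, and 2 in EC at day 3, changes of moderate size can be missed.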
